A study of Mus musculus with 20 samples.

Results

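The genes described here are 36 genes that mark the endothelium of the heart or act in the growth of its vessels. They were chosen by symbol as genes expressed mainly by cardiac endothelium, with no threshold on the values of these hearts. Earlier results of these data were known at that choice, so counts set against all genes are descriptive. All 36 were found by their Ensembl gene IDs among the 31874 genes of the expression table, and all 36 were among the 18219 genes tested. RNA of ventricular myocardium was sequenced from 20 isolated mouse hearts, with 5 separate hearts in each of 4 groups. The WT-Con and WT-IR hearts came from wild-type (WT) C57BL/6J mice, and the Fat1-Con and Fat1-IR hearts from transgenic mice that carry fat-1, the n-3 fatty acid desaturase of Caenorhabditis elegans, an enzyme that turns n-6 into n-3 polyunsaturated fatty acids. All mice were 3 months old, and every heart was taken out and perfused with buffer on a Langendorff apparatus, so the control hearts also went through isolation and perfusion without blood. In the control groups perfusion ran on for 120 min. In the ischemia-reperfusion (IR) groups an equilibration of 40 min was followed by global ischemia for 20 min and then by 1 h of reperfusion. The promoter of the transgene is not given in the sources used here, and a transgene of this kind need not be restricted to endothelium.

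Endothelial cells line every vessel and form most of the capillary wall of the myocardium. VEGF, made by neighbouring cells, acts through receptor tyrosine kinases on the endothelial surface to drive sprouting and permeability, while angiopoietins act through the Tie receptors to keep vessels quiescent or, in the case of Angpt2, to loosen them. Adherens and tight junction proteins seal the cells to each other, and transcription factors of the ETS and SOXF families hold the endothelial program in place.

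Expression is given as FPKM, the fragments of a gene per kilobase of its exons, scaled to all fragments assigned to genes in that library, which allows levels of different genes to be compared. Of the defining markers of the set, Cdh5, the cadherin of endothelial junctions, lay between 16.02 and 53.1 FPKM in all 20 hearts. Pecam1, the adhesion molecule PECAM-1 (CD31), lay between 17.02 and 30.8 FPKM. Both belong to the set, so their levels do not show which cells made the RNA of the other genes. The levels of the 36 genes differed widely. The water channel gene Aqp1 had the highest mean over the 20 hearts, 97.8 FPKM, followed by the fatty acid-binding protein gene Fabp4 at 88.1 FPKM and the claudin gene Cldn5 at 47.4 FPKM. The lowest means were those of Sox17 (2.36 FPKM), the lymphatic VEGF receptor Flt4 (2.36 FPKM) and Angpt2 (1.06 FPKM). The tissue was not sorted, and the summed FPKM of 12 cardiomyocyte markers was 19680 to 43940, against 519.7 to 852.9 for the 36 endothelial genes together. In such bulk RNA, fewer endothelial cells and less RNA per endothelial cell cannot be told apart.

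Promoter sequence is shown for 3 genes that changed after IR, in the windows of RefSeq on build GRCm38.p6, where symbols matched for 18 of the 36 genes. Rgcc and Rasip1 come from the rule of the smallest p for IR averaged over genotypes, which also takes Sox17, and Kdr was added after its values were seen, as the VEGF receptor that rose. Each run is printed 5′ to 3′ on the strand of the gene and ends before the annotated start of the gene, and capitals mark ETS motifs, AGGAAG or CCGGAA, here met on the opposite strand as CTTCCT or TTCCGG.
Rgcc (chr14:79301646-79301885, minus strand): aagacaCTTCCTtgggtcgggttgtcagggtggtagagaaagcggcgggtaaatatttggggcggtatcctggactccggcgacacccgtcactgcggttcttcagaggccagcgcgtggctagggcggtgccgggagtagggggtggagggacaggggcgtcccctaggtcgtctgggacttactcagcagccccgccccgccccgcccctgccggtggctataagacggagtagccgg
Rasip1 (chr7:45627287-45627487, plus strand): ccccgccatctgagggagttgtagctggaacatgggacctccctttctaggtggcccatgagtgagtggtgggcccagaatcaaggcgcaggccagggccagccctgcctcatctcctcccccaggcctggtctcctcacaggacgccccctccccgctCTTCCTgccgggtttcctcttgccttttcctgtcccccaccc
Kdr (chr5:75978459-75978705, minus strand): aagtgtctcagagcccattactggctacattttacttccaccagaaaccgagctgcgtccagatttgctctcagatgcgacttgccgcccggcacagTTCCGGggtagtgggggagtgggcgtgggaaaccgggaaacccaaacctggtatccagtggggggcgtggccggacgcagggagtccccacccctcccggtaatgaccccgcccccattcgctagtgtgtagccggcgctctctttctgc
ETS factors bind sites built on a GGAA core, and Ets1, Erg and Fli1 of the set belong to that family. Over windows of 300 bases (250 before the start and 50 after it), searched on both strands, AGGAAG was found in 14 of the 22 windows of the 18 genes (63.6%), which belong to 13 genes, and in 35.4% of all 32851 windows of the table. The other ETS motif, CCGGAA, was found in 1 of the 22 (4.55%), a Kdr window, and in 14.9% of all windows. The KLF motifs CCACCC and CCGCCC were in 12 (54.5%) and 10 (45.5%) of the 22, against 31.5% and 35.7% of all windows. NFAT (GGAAAA), which shares the GGAA core with the ETS motifs, was in 5 (22.7%, against 23.4%). SOX (ACAATG) was in 1 (4.55%, against 12.6%) and CRE (TGACGTCA) in 1 (4.55%, against 1.79%). FOX (TGTTTAC), AP-1 (TGACTCA) and SMAD (GTCTAGAC) were in 0, against 3.65%, 5.2% and 0.213% of all windows. AGGAAG stood in the window of Rgcc, which rose, and in that of Rasip1, which fell. These are matches of letters and not measured binding.

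Between 15630000 and 25990000 fragments were assigned to genes in a library, with a median of 19525000. A value of this set therefore rested on many fragments except for the lowest genes. WT-Con 5, Fat1-IR 1 and Fat1-IR 4 stood apart from the other hearts of their groups. The share of fragments from mitochondrial DNA was 15.1% in WT-Con 5 and 13.9% in Fat1-IR 1, against 28.4% to 39.3% in the other 18 hearts. In WT-Con 5 many genes with long transcripts were low and some with short ones high. Its log2 difference from the median of the other WT-Con hearts correlated with exon length at a Spearman's rho of -0.50 across the 36 genes and -0.34 across the 17942 tested genes with a known length, where genes share that library and are not replicates. The 18 longer genes of the set, over 4125.5 bases of exon, had a median difference of -0.56 there, and the 18 shorter ones -0.01. Flt4 in WT-Con 5 was at 0.925 FPKM where the other WT-Con hearts had 2.29 to 2.52, Ptprb at 3.68 against 9.28 to 12.04, and Cdh5 at 16.02 against 36.8 to 46.9. Icam2, a shorter gene, was at 16.9 FPKM there against 7.41 to 8.69. Other genes went against the pattern of length. Fabp4, with 4489 bases of exon, was at 162.2 against 56.9 to 67.0, and Erg, with 3466 bases, at 3.73 against 8.09 to 8.78. Fat1-IR 1 had higher values for much of the set, with a median log2 difference from the other Fat1-IR hearts of 0.32 for the shorter genes and 0.26 for the longer ones, while Cdh5 was lower (19.9 FPKM against 36.5 to 44.9). In Fat1-IR 4, markers of lymphocytes summed to 30.3 FPKM, where every other heart of the series had at most 1.05 FPKM. Values without these libraries are given beside the results they move most, and the part that exon length, the mitochondrial share or blood cells played in a result was not tested.

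**Figure D1:**
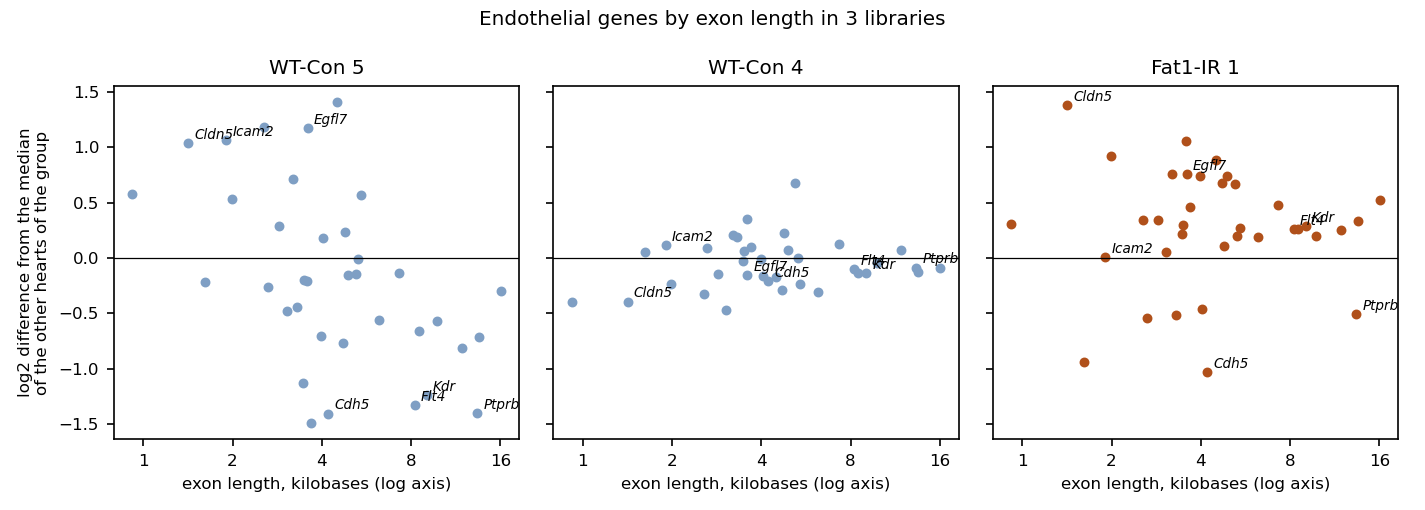
Each point is 1 of the 36 genes, with its exon length in kilobases on a log axis and, on the vertical axis, its log2 difference in 1 heart from the median of the other hearts of the group. In WT-Con 5 the long Kdr, Flt4 and Ptprb lie more than 1 below zero and the short Cldn5 and Icam2 more than 1 above, WT-Con 4 shows no such slope, and Fat1-IR 1 lies mostly above zero.

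Comparison of WT-IR with WT-Con asks how the RNA of these genes in wild-type myocardium differed after IR. Of the 36 genes, 5 rose after IR: Kdr, Tie1, Sox17, Aqp1 and Rgcc. Rasip1 alone fell. A gene was called when limma's adjusted p was under 0.05 and its fold change over 1.5, and by that rule 2.01% of all tested genes rose and 1.19% fell, against 13.9% and 2.78% of the set. An unadjusted p under 0.05 was reached by 21 genes (58.3%, against 14.9% of all genes), 18 of them with a positive change. Every WT-IR heart lay above every WT-Con heart for 7 genes (19.4%, against 3.36% of all genes), namely the called 5 with Nrp1 and Cd34. Every WT-IR heart lay below every WT-Con heart for Rasip1 and Cldn5 (5.56%, against 1.39%). The log2 fold change was above 0 for 29 of the 36 genes (80.6%, against 54.7% of all genes), with a median of 0.33 against 0.04 over all genes. Without WT-Con 5, 8 genes rose and 2 fell: Egfl7, Fabp4 and Gpihbp1 joined the genes that rose and Sox7 the one that fell. Markers of other cells are given beside these counts. In WT-IR against WT-Con the median log2 change was 0.50 over 10 fibroblast markers and 0.28 over 10 pericyte and smooth muscle markers, and the summed FPKM of the latter was 217.7 to 259.3 in WT-Con and 275.0 to 308.9 in WT-IR. Over 12 cardiomyocyte markers the median was -0.24, and -0.03 without WT-Con 5, in which they summed to 43940 FPKM against 21670 to 23280 in the other WT-Con hearts. Their part in the endothelial values was not tested.

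In fat-1 hearts the same comparison, Fat1-IR with Fat1-Con, gave 2 genes that rose, Sox17 and Rgcc (5.56% of the set, against 1.3% of all genes). By limma 0 genes of the set fell there (against 0.703% of all genes), 2 had a negative change at an unadjusted p under 0.05, Rasip1 and Sox7, and limma's voom on fragments read back from the FPKM also gave 0. An unadjusted p under 0.05 was reached by 11 genes (30.6%, against 12.5%). Every Fat1-IR heart lay above every Fat1-Con heart for 5 genes (13.9%, against 4.22%), Flt4, Tie1, Sox17, Rgcc and Apold1, and for 0 genes every Fat1-IR heart lay below (against 2.46%). The log2 fold change was above 0 for 25 genes (69.4%, against 61.8%), with a median of 0.15 against 0.08 over all genes. Averaged over both genotypes, 4 genes rose after IR, Kdr, Sox17, Aqp1 and Rgcc (11.1%, against 2.86% of all genes), and 2 fell, Cldn5 and Rasip1 (5.56%, against 1.48%). Without the fold threshold, 8 genes were higher at an adjusted p under 0.05 in limma (22.2%, against 4.55%), with Flt1, Tie1, Emcn and Vwf added, and 3 lower (8.33%, against 2.62%), with Sox7 added. Sox17 and Rgcc were the pair for which all 10 IR hearts lay above all 10 control hearts (5.56%, against 0.664%). The 2 comparisons within a genotype share no hearts. For markers of other cells in Fat1-IR against Fat1-Con, the median log2 change was 0.38 over 10 fibroblast markers and 0.18 over 10 pericyte and smooth muscle markers. Over 12 cardiomyocyte markers it was 0.13, and 0 markers of each of these lists were called. The cardiomyocyte markers summed to 31090 FPKM in Fat1-IR 1, against 20760 to 22150 in the other Fat1-IR hearts and 20740 to 22200 in Fat1-Con. The median log2 change was 1.44 over 4 red cell markers and 1.43 over 4 lymphocyte markers, the latter 0.24 without Fat1-IR 4. The part of these cells in the endothelial values was not tested.

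**Figure D2:**
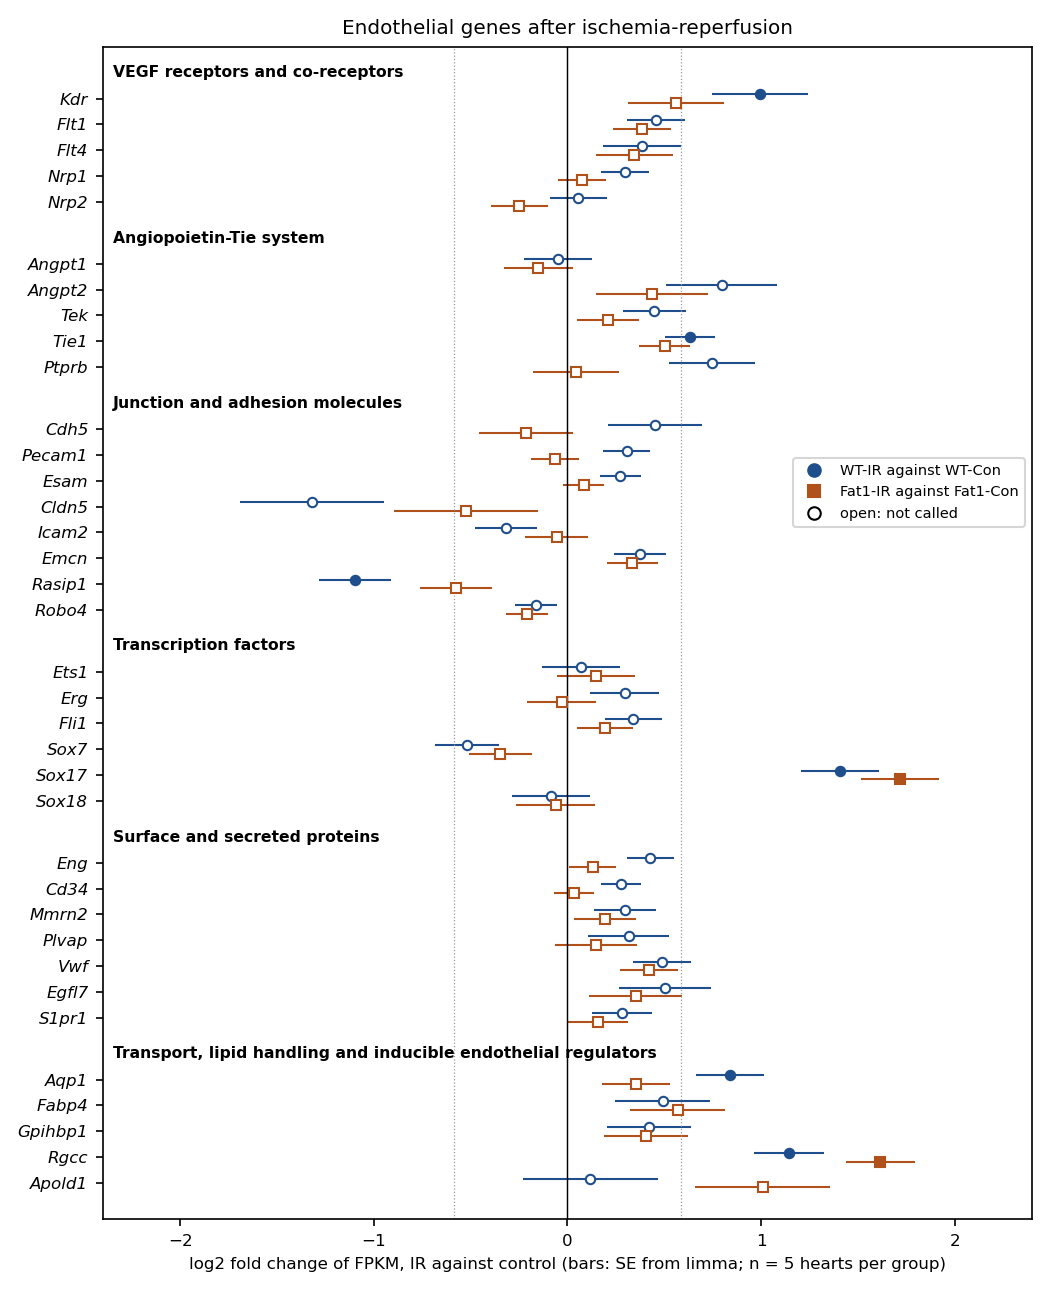
Points give the log2 fold change of FPKM for each of the 36 genes, in blue circles for WT-IR against WT-Con and in orange squares for Fat1-IR against Fat1-Con, with bars of 1 SE from limma and n = 5 hearts per group. Filled points were called, the dotted lines mark a fold change of 1.5, and Sox17 and Rgcc stand to the right in both genotypes while Rasip1 and Cldn5 stand to the left.

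**Figure D3:**
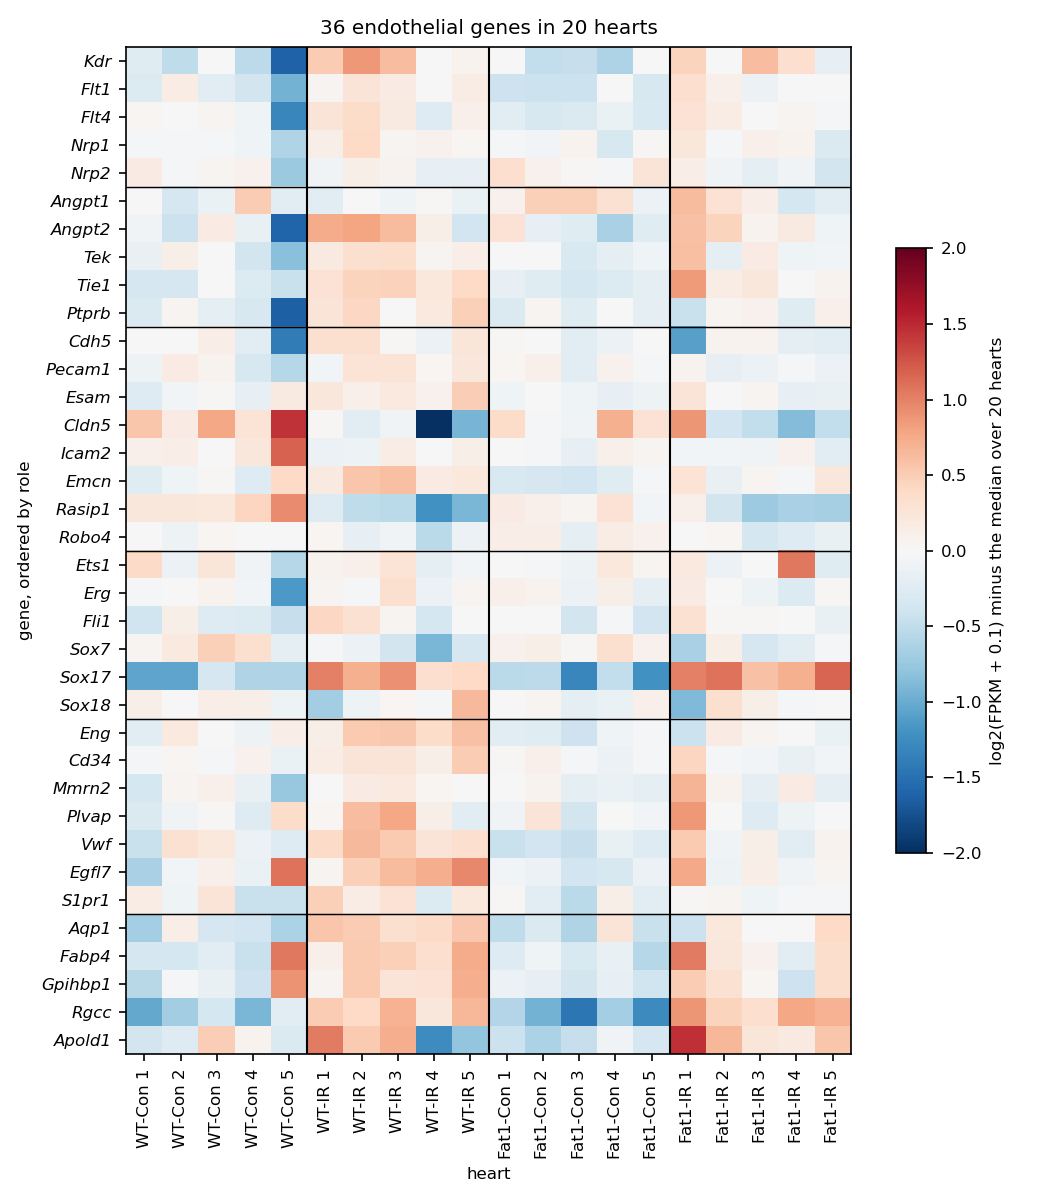
Rows are the 36 genes in order of role and columns the 20 hearts, with color for log2(FPKM + 0.1) minus the median of the gene over all hearts, on a scale that ends at 2 in either direction. WT-Con 5 shows blue cells for long genes such as Kdr, Flt4 and Ptprb, and the Sox17 and Rgcc rows are red in all 10 IR hearts.

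The VEGF receptors and their neuropilin co-receptors held 1 gene that rose, Kdr. Kdr (ENSMUSG00000062960, mm10 chr5:75932827-75978458) encodes VEGFR2, the main signaling receptor for VEGF-A. Kdr was at 13.8, 11.4, 16.4, 11.4 and 5.28 FPKM in WT-Con 1 to 5, 23.4, 30.0, 25.1, 16.6 and 17.2 in WT-IR 1 to 5, 16.4, 11.6, 11.8, 10.7 and 16.5 in Fat1-Con 1 to 5 and 22.5, 16.4, 25.2, 20.7 and 14.7 in Fat1-IR 1 to 5. All WT-IR hearts exceeded all WT-Con hearts, by a small margin at the edge, and the fat-1 groups overlapped. It rose in WT hearts (log2 fold change 0.99, SE 0.25, adjusted p = 0.0266) and was not called in fat-1 hearts (log2 fold change 0.56, SE 0.25, adjusted p = 0.342). Without WT-Con 5, in which Kdr was lowest, the WT change was 0.73 (SE 0.20, adjusted p = 0.0311 in limma). The WT call was lost in 8 of 35 other settings, among them TPM scaling (adjusted p = 0.0650 in limma) and leaving out WT-Con 4 or any of WT-IR 1 to 3.

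Flt1 encodes VEGFR1, which binds VEGF-A with high affinity and limits its action on Kdr. Flt1 was at 10.97, 14.7, 11.5, 10.3 and 6.83 FPKM in WT-Con 1 to 5, 13.8, 15.9, 14.8, 13.4 and 14.7 in WT-IR 1 to 5, 9.96, 9.80, 9.88, 13.3 and 10.7 in Fat1-Con 1 to 5 and 16.9, 14.3, 12.3, 13.2 and 13.4 in Fat1-IR 1 to 5. Its groups overlapped in both genotypes, with Fat1-Con 4 above the other Fat1-Con hearts. Neither the WT change (log2 fold change 0.46, SE 0.15, adjusted p = 0.110) nor the fat-1 change (log2 fold change 0.39, SE 0.15, adjusted p = 0.254) was called, and the mean over genotypes, 0.42 (SE 0.11, adjusted p = 0.0170), passed limma's adjusted p but lay under the fold threshold. Flt4 encodes VEGFR3, the receptor for VEGF-C of lymphatic and sprouting endothelium. Flt4 was at 2.48, 2.44, 2.52, 2.29 and 0.925 FPKM in WT-Con 1 to 5, 2.90, 3.17, 2.76, 2.003 and 2.60 in WT-IR 1 to 5, 2.09, 1.92, 1.96, 2.19 and 1.94 in Fat1-Con 1 to 5 and 2.97, 2.70, 2.403, 2.53 and 2.38 in Fat1-IR 1 to 5. WT-Con 5 was the lowest of the 20 hearts, the WT groups overlapped, and all Fat1-IR hearts lay above all Fat1-Con hearts although the change (log2 fold change 0.35, SE 0.20, adjusted p = 0.507) was not called. Without WT-Con 5 the WT change was 0.30 for Flt1 and 0.12 for Flt4, and neither was called.

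Nrp1 and Nrp2 encode neuropilins, which bind VEGF together with its receptors. Nrp1 was at 9.95, 9.95, 10.02, 9.63 and 6.70 FPKM in WT-Con 1 to 5, 11.1, 13.4, 10.6, 10.9 and 10.5 in WT-IR 1 to 5, 10.04, 9.83, 10.7, 8.20 and 10.4 in Fat1-Con 1 to 5 and 11.9, 9.98, 11.01, 10.7 and 8.38 in Fat1-IR 1 to 5. All WT-IR hearts lay above all WT-Con hearts, the change (log2 fold change 0.30, SE 0.12, adjusted p = 0.243) was not called, and the fat-1 groups overlapped. Nrp2 was at 6.29, 5.42, 5.81, 5.90 and 3.29 FPKM in WT-Con 1 to 5, 5.33, 6.08, 5.87, 4.98 and 4.98 in WT-IR 1 to 5, 7.08, 5.90, 5.68, 5.49 and 6.68 in Fat1-Con 1 to 5 and 6.10, 5.32, 4.89, 5.31 and 4.29 in Fat1-IR 1 to 5. The groups of Nrp2 overlapped in both genotypes. The median log2 fold change of the 5 genes was 0.38 in WT and 0.35 in fat-1 hearts, and 0.19 in WT without WT-Con 5.

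In the angiopoietin-Tie system, 1 gene rose as well. Tie1 (ENSMUSG00000033191, mm10 chr4:118471191-118490061) encodes the orphan Tie receptor that modulates signaling of Tek. Tie1 was at 12.9, 12.9, 16.4, 13.5 and 11.9 FPKM in WT-Con 1 to 5, 19.9, 22.1, 22.5, 18.8 and 21.4 in WT-IR 1 to 5, 14.46, 13.7, 12.7, 13.5 and 14.4 in Fat1-Con 1 to 5 and 29.5, 18.2, 19.1, 16.2 and 17.1 in Fat1-IR 1 to 5. In both genotypes every IR heart lay above every control heart, and Fat1-IR 1 was highest of all 20. It rose in WT hearts (log2 fold change 0.63, SE 0.13, adjusted p = 0.00748). The change in fat-1 hearts (log2 fold change 0.50, SE 0.13, adjusted p = 0.0483) passed limma's adjusted p and lay under the fold of 1.5. With values scaled to TPM the WT change was 0.57 with an adjusted p of 0.0937 in limma and was no longer called.

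Tek encodes Tie2, the receptor of both angiopoietins. Tek was at 11.5, 13.8, 12.8, 9.89 and 7.09 FPKM in WT-Con 1 to 5, 14.4, 15.9, 16.2, 13.2 and 13.9 in WT-IR 1 to 5, 12.8, 12.7, 10.2, 11.1 and 11.9 in Fat1-Con 1 to 5 and 19.4, 11.2, 14.3, 12.0 and 12.3 in Fat1-IR 1 to 5. The groups of Tek overlapped in both genotypes, and the WT change (log2 fold change 0.45, SE 0.16, adjusted p = 0.159) was not called. Angpt1 encodes the agonist ligand, made largely by mural and other cells around the vessel. Angpt1 was at 6.58, 5.20, 6.00, 9.42 and 5.69 FPKM in WT-Con 1 to 5, 5.63, 6.60, 6.23, 6.69 and 6.00 in WT-IR 1 to 5, 6.98, 9.26, 9.24, 8.17 and 6.08 in Fat1-Con 1 to 5 and 10.2, 8.05, 7.24, 5.13 and 5.69 in Fat1-IR 1 to 5. Its groups overlapped, and neither the WT change (log2 fold change -0.05, SE 0.18, adjusted p = 0.941) nor the fat-1 change (log2 fold change -0.15, SE 0.18, adjusted p = 0.771) was called. Angpt2 encodes the ligand that endothelium stores and releases on activation, and which opposes Angpt1 in many settings. Angpt2 was at 0.940, 0.712, 1.12, 0.882 and 0.260 FPKM in WT-Con 1 to 5, 1.72, 1.79, 1.59, 1.09 and 0.735 in WT-IR 1 to 5, 1.23, 0.877, 0.826, 0.598 and 0.821 in Fat1-Con 1 to 5 and 1.53, 1.39, 1.04, 1.14 and 0.928 in Fat1-IR 1 to 5. WT-IR 1 to 3 exceeded every control heart, while WT-IR 4 and 5 lay within the control range, and the WT change (log2 fold change 0.80, SE 0.29, adjusted p = 0.162) was not called, nor was that of 0.50 without WT-Con 5 (adjusted p = 0.252 in limma). Ptprb encodes VE-PTP, the phosphatase that restrains Tie2 and VE-cadherin signaling. Ptprb was at 9.499, 12.0, 10.2, 9.28 and 3.68 FPKM in WT-Con 1 to 5, 13.96, 15.6, 11.7, 13.4 and 16.2 in WT-IR 1 to 5, 9.47, 12.1, 9.82, 11.7 and 10.3 in Fat1-Con 1 to 5 and 8.57, 12.1, 12.4, 9.86 and 12.5 in Fat1-IR 1 to 5. WT-Con 5 was the lowest heart of all, the WT change (log2 fold change 0.75, SE 0.22, adjusted p = 0.0673) was not called, and in fat-1 hearts the groups lay together (log2 fold change 0.04, SE 0.22, adjusted p = 0.954). Without WT-Con 5 the WT change of Ptprb was 0.46 (SE 0.13, adjusted p = 0.0375 in limma), under the fold threshold.

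Ratios of FPKM + 0.1 within a heart depend on the scaling of its library only through the added 0.1, which weighs on low genes, and 4 of them were compared between groups by exact two-sided permutation tests over all splits of 10 hearts, with adjustment over 16 tests (smallest possible p 0.00794). The log2 ratio of Sox17 to Sox7, a pair of SOXF factors, was -3.89 ± 0.32 in WT-Con and -1.96 ± 0.25 in WT-IR (SD, n = 5, exact permutation p = 0.00794, adjusted p = 0.0423). In fat-1 hearts it was -3.92 ± 0.35 and -1.86 ± 0.31 (exact permutation p = 0.00794, adjusted p = 0.0423). In each genotype all 5 IR hearts lay above all 5 control hearts. With a pseudocount of 1 in place of 0.1 these differences in the Sox17 to Sox7 ratio were 1.46 in WT and 1.52 in fat-1 hearts, at the same exact permutation p. The log2 ratio of Tie1 to Tek rose from 0.23 ± 0.08 in Fat1-Con to 0.52 ± 0.12 in Fat1-IR (exact permutation p = 0.00794, adjusted p = 0.0423). In WT hearts it was 0.32 ± 0.31 and 0.51 ± 0.06 (exact permutation p = 0.230, adjusted p = 0.524), with WT-Con 5 the highest of all hearts at 0.74. Without that heart the WT difference was 0.29 (exact permutation adjusted p = 0.03175). Angpt2 against Angpt1 differed by 0.84 on the log2 scale in WT and 0.59 in fat-1 hearts (exact permutation p = 0.0556 and adjusted p = 0.148 in both). Kdr against Flt1 differed by 0.54 in WT hearts (exact permutation p = 0.0556, adjusted p = 0.148) and 0.17 in fat-1 hearts (exact permutation p = 0.500, adjusted p = 0.762). No ratio passed between genotypes, where the exact permutation adjusted p was 0.524 or more.

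**Figure D4:**
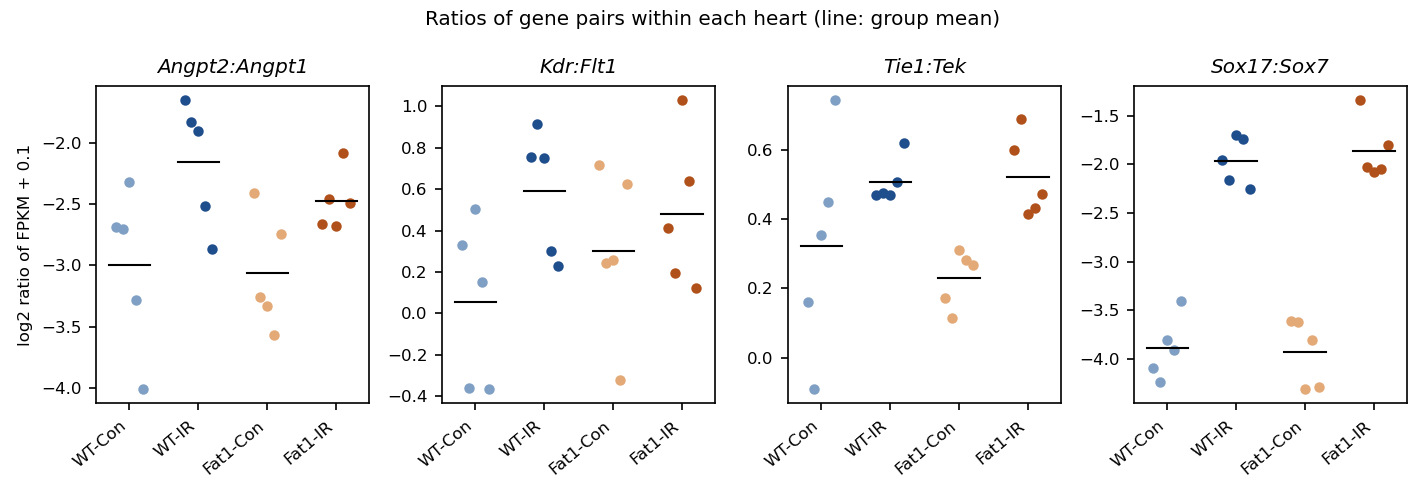
Each point is the log2 ratio of FPKM + 0.1 of a gene pair in 1 heart, with hearts 1 to 5 from left to right in each group and a line at the group mean. The Sox17 to Sox7 ratio lies between -4.31 and -3.40 in the 10 control hearts and between -2.26 and -1.34 in the 10 IR hearts, whereas the ratios of Kdr to Flt1 overlap.

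Junction and adhesion molecules were the group with genes that fell. Rasip1 (ENSMUSG00000044562, mm10 chr7:45627488-45639093) encodes a Ras-interacting protein needed for vessel lumen formation and stable cell junctions. Rasip1 was at 16.5, 16.6, 16.3, 19.0 and 27.2 FPKM in WT-Con 1 to 5, 11.7, 9.91, 9.68, 6.00 and 7.44 in WT-IR 1 to 5, 15.8, 15.1, 14.7, 17.3 and 13.5 in Fat1-Con 1 to 5 and 15.1, 10.9, 8.44, 8.97 and 8.86 in Fat1-IR 1 to 5. Every WT-IR heart lay below every WT-Con heart, and in fat-1 hearts 4 of the 5 IR hearts lay below the control range while Fat1-IR 1 lay within it. It fell in WT hearts (log2 fold change -1.09, SE 0.19, adjusted p = 0.00156). The fat-1 change (log2 fold change -0.57, SE 0.19, adjusted p = 0.136) was not called, and it was -0.70 when the 3 hearts that stood apart were left out (SE 0.16, adjusted p = 0.0275 in limma). Counting used no strand, and 15.6% of the exon bases of Rasip1 overlap A030001D20Rik on the other strand, 20.4% overlap Izumo1 on the same strand and 6.93% overlap Gm45437. The mean levels of A030001D20Rik were 4.47 FPKM in WT-Con and 3.20 FPKM in WT-IR, with an adjusted p of 0.552 in limma, and Izumo1 was at most 0.291 FPKM in any group mean.

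Cldn5 (ENSMUSG00000041378, mm10 chr16:18776847-18778262) encodes claudin-5, the main tight junction claudin of endothelium. Cldn5 was at 61.7, 47.2, 72.3, 50.9 and 115 FPKM in WT-Con 1 to 5, 42.9, 36, 40.2, 9.16 and 22.1 in WT-IR 1 to 5, 54.5, 41.4, 39.9, 69.3 and 51.6 in Fat1-Con 1 to 5 and 77.8, 32.4, 29.8, 23.2 and 29.8 in Fat1-IR 1 to 5. All WT-IR hearts lay below all WT-Con hearts, WT-IR 4 was the lowest of the 20, and the fat-1 groups overlapped through Fat1-IR 1 alone. Neither the WT change (log2 fold change -1.32, SE 0.37, adjusted p = 0.0544) nor the fat-1 change (log2 fold change -0.53, SE 0.37, adjusted p = 0.599) was called, and without Fat1-IR 1 the latter was -0.81 (SE 0.36, adjusted p = 0.383 in limma). The mean over genotypes was called (log2 fold change -0.92, SE 0.26, adjusted p = 0.0369), and this call was lost in 12 of 34 other settings, among them the omission of WT-Con 1 or 3, WT-IR 5, Fat1-Con 1, 4 or 5, or any of Fat1-IR 2 to 5.

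The other 6 junction and adhesion genes were not called in either genotype. Cdh5, which encodes VE-cadherin, had means of 36.95 ± 12.2 FPKM in WT-Con, 47.8 ± 6.35 in WT-IR, 40.9 ± 2.79 in Fat1-Con and 36.6 ± 10.1 in Fat1-IR (n = 5 hearts per group, with SD). The WT change of Cdh5 was 0.45 with all hearts and 0.17 without WT-Con 5. Pecam1 had means of 23.2 ± 4.70 FPKM in WT-Con, 28.4 ± 2.84 in WT-IR, 25.3 ± 2.32 in Fat1-Con and 24.2 ± 1.60 in Fat1-IR. Esam and Icam2 encode further adhesion molecules of endothelial contacts and spanned 11.99 to 20.2 FPKM and 6.32 to 16.9 FPKM over the 20 hearts. Emcn encodes the sialomucin endomucin of capillaries and veins. Emcn had means of 6.61 ± 1.35 FPKM in WT-Con, 8.54 ± 1.30 in WT-IR, 5.57 ± 0.582 in Fat1-Con and 7.07 ± 0.872 in Fat1-IR, and its mean change over genotypes, 0.35 (SE 0.10, adjusted p = 0.0250), passed limma's adjusted p under the fold threshold. Robo4, which encodes a roundabout receptor of endothelium, spanned 5.88 to 9.49 FPKM over the 20 hearts. Of the 8 genes, 4 had a positive change in WT and 2 in fat-1 hearts, with medians of 0.06 and -0.14, where TPM scaling put the WT median at -0.01.

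Among the transcription factors, Sox17 rose in both genotypes and its relatives were not called. Sox17 (ENSMUSG00000025902, mm10 chr1:4490931-4497354) encodes a SOXF factor linked to arterial identity. Sox17 was at 0.903, 0.903, 1.54, 1.27 and 1.27 FPKM in WT-Con 1 to 5, 4.11, 3.32, 3.83, 2.54 and 2.63 in WT-IR 1 to 5, 1.34, 1.36, 0.745, 1.39 and 0.798 in Fat1-Con 1 to 5 and 4.08, 4.30, 3.02, 3.32 and 4.56 in Fat1-IR 1 to 5. All 10 IR hearts lay above all 10 control hearts, and no heart stood apart within its group. It rose in WT hearts (log2 fold change 1.41, SE 0.20, adjusted p = 0.000424) and in fat-1 hearts (log2 fold change 1.72, SE 0.20, adjusted p = 5.24e-05), which is a fold change of 2.65 and 3.29. Both calls held in each of 35 other settings, though several of these leave the fold change as it was. The exons of Sox17 share 16.9% of their bases with Gm37587, which was at a mean of 0.00325 FPKM.

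Sox7 and Sox18 encode the other SOXF factors, which overlap with Sox17 in function in mice. Sox7 had means of 18.7 ± 3.21 FPKM in WT-Con, 13.2 ± 2.90 in WT-IR, 18.0 ± 1.54 in Fat1-Con and 14.3 ± 2.82 in Fat1-IR. Its changes, -0.52 (SE 0.16, adjusted p = 0.0897) in WT and -0.35 (SE 0.16, adjusted p = 0.391) in fat-1 hearts, were not called. The mean over genotypes, -0.43 (SE 0.12, adjusted p = 0.0247), passed limma's adjusted p under the fold threshold, and without WT-Con 5 the WT change of -0.61 was called (limma adjusted p = 0.0300). Sox18 had means of 12.9 ± 0.902 FPKM in WT-Con, 12.7 ± 4.28 in WT-IR, 12.2 ± 1.03 in Fat1-Con and 12.1 ± 3.296 in Fat1-IR, with changes of -0.09 and -0.06 in the WT and fat-1 comparisons. The ETS factors Ets1, Erg and Fli1, which bind the promoters and enhancers of many endothelial genes, had changes between -0.03 and 0.34, none called. Ets1, which lymphocytes also express, was at 22.2 FPKM in Fat1-IR 4 and 9.06 to 12.3 FPKM in the other Fat1-IR hearts, beside the lymphocyte markers that were high in that heart, whose part was not tested. Fli1 spanned 5.20 to 9.60 FPKM over the 20 hearts. Erg was at 3.73 FPKM in WT-Con 5 and 8.09 to 8.78 FPKM in the other WT-Con hearts.

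The surface and secreted proteins moved little, and 0 of 7 were called by limma or by voom in either genotype, while 4 had an unadjusted p under 0.05 in WT, Eng, Cd34, Vwf and Egfl7, and 1 in fat-1 hearts, Vwf. All 7 had a positive change in both genotypes, with medians of 0.32 and 0.16, although in fat-1 hearts 6 of 7 were positive with median-of-ratios scaling and only 4 of 7, when the 3 hearts that stood apart were left out. Eng, which encodes endoglin, a co-receptor for BMP9, had means of 23.5 ± 2.64 FPKM in WT-Con, 31.7 ± 3.94 in WT-IR, 20.4 ± 2.04 in Fat1-Con and 22.5 ± 3.39 in Fat1-IR. Its WT change was 0.43 (SE 0.12, adjusted p = 0.0547). Vwf, which encodes the von Willebrand factor that endothelium and platelets store, had means of 3.57 ± 0.784 FPKM in WT-Con, 4.98 ± 0.561 in WT-IR, 2.88 ± 0.285 in Fat1-Con and 3.94 ± 0.829 in Fat1-IR, and its mean change over genotypes, 0.46 (SE 0.11, adjusted p = 0.0103), passed limma's adjusted p under the fold threshold. Platelet markers summed to 9.26 to 53.2 FPKM in the hearts. Cd34, the sialomucin CD34, which is also found on some stromal and blood progenitor cells, had means of 15.3 ± 0.902 FPKM in WT-Con, 18.6 ± 2.03 in WT-IR, 15.4 ± 0.892 in Fat1-Con and 15.9 ± 2.77 in Fat1-IR. Egfl7, whose secreted product associates with vessel walls, had means of 9.99 ± 5.03 FPKM in WT-Con, 13.3 ± 2.99 in WT-IR, 7.65 ± 0.774 in Fat1-Con and 9.99 ± 2.74 in Fat1-IR, and without WT-Con 5 its WT change of 0.76 was called (limma adjusted p = 0.0210). Mmrn2, a matrix protein of endothelium, spanned 6.54 to 17.8 FPKM. Plvap, which builds the diaphragms of fenestrae and caveolae, spanned 2.39 to 5.75 FPKM. S1pr1, the receptor for sphingosine 1-phosphate that tightens the barrier, spanned 13.6 to 27.6 FPKM. The groups of Mmrn2, Plvap and S1pr1 overlapped in both genotypes.

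The last group holds transport, lipid handling and inducible regulators, and 2 of its 5 genes rose in WT and 1 in fat-1 hearts. Rgcc (ENSMUSG00000022018, mm10 chr14:79288756-79301645) encodes a regulator of the cell cycle that is induced by hypoxia and complement and restrains endothelial growth. Rgcc was at 8.47, 10.7, 13.5, 9.11 and 14.8 FPKM in WT-Con 1 to 5, 24.7, 22.9, 28.1, 20.3 and 27.5 in WT-IR 1 to 5, 11.4, 8.99, 6.27, 10.7 and 7.10 in Fat1-Con 1 to 5 and 32.0, 23.7, 21.9, 29.8 and 28.2 in Fat1-IR 1 to 5. As with Sox17, all 10 IR hearts lay above all 10 control hearts. It rose in WT hearts (log2 fold change 1.14, SE 0.18, adjusted p = 0.000773) and in fat-1 hearts (log2 fold change 1.62, SE 0.18, adjusted p = 3.34e-05), a fold change of 2.21 and 3.07. Each call held in 35 other settings, with the same limit as for Sox17.

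Aqp1 (ENSMUSG00000004655, mm10 chr6:55336432-55348555) encodes aquaporin-1, the water channel of capillary endothelium and red cells. Aqp1 was at 60.5, 107, 77.0, 74.0 and 62.9 FPKM in WT-Con 1 to 5, 142, 139, 121, 127 and 141 in WT-IR 1 to 5, 68.0, 79.5, 64.3, 116 and 70.9 in Fat1-Con 1 to 5 and 71.7, 112, 96.8, 97.4 and 128 in Fat1-IR 1 to 5. All WT-IR hearts lay above all WT-Con hearts, and the fat-1 groups overlapped. It rose in WT hearts (log2 fold change 0.84, SE 0.18, adjusted p = 0.00825) and was not called in fat-1 hearts (log2 fold change 0.35, SE 0.18, adjusted p = 0.429). Red cell markers summed to 0.647 to 7.66 FPKM in WT-Con and 1.497 to 8.77 FPKM in WT-IR, and their part in the change of Aqp1 was not tested. The mean change over genotypes (log2 fold change 0.60, SE 0.12, adjusted p = 0.00432) was called, and that call was lost in 9 of 34 other settings, among them the omission of WT-Con 1 or 5, Fat1-Con 1, 3 or 5, or Fat1-IR 2 or 5.

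Apold1, an immediate-early gene of endothelium, divided the WT-IR hearts. Apold1 was at 30.0, 32.4, 54.5, 40.8 and 31.5 FPKM in WT-Con 1 to 5, 79.8, 55.4, 64.1, 16.1 and 22.4 in WT-IR 1 to 5, 28.8, 25.0, 28.1, 36.7 and 30.5 in Fat1-Con 1 to 5 and 107, 61.6, 46.0, 43.7 and 56.9 in Fat1-IR 1 to 5. WT-IR 1 to 3 lay above all WT-Con hearts and WT-IR 4 and 5 below them, while all Fat1-IR hearts lay above all Fat1-Con hearts. The changes were 0.12 (SE 0.35, adjusted p = 0.925) in WT and 1.01 (SE 0.35, adjusted p = 0.172) in fat-1 hearts, and neither was called. With limma fitted to Fat1-IR and Fat1-Con alone, Apold1 was called up in fat-1 hearts. Without WT-IR 4 it was called up in the mean over genotypes. The same WT-IR 4 and 5 had the lowest WT-IR values of Cldn5, Angpt2 and Kdr. Fabp4 encodes the fatty acid chaperone of capillaries and of adipocytes, and Gpihbp1 encodes the protein that carries lipoprotein lipase to the capillary lumen. Fabp4 had means of 81.7 ± 45.1 FPKM in WT-Con, 106 ± 16.9 in WT-IR, 64.8 ± 7.99 in Fat1-Con and 99.9 ± 35.4 in Fat1-IR. Adipocyte markers other than Fabp4 summed to 1.62 to 16.3 FPKM in the control hearts and to up to 117.7 FPKM in the IR hearts, the latter in Fat1-IR 1, where Fabp4 was at 159.5 FPKM. Of 6 adipocyte markers tested, all 6 were higher in mean in Fat1-IR than in Fat1-Con, and Cfd (adipsin) was called (log2 fold change 2.87, limma adjusted p = 0.0410). Their part in the values of Fabp4 was not tested. Gpihbp1 had means of 13.6 ± 6.36 FPKM in WT-Con, 17.3 ± 3.19 in WT-IR, 11.1 ± 0.992 in Fat1-Con and 15.0 ± 3.43 in Fat1-IR. Neither was called with all hearts, and without WT-Con 5 the WT changes of Fabp4 (0.77, adjusted p = 0.0143) and Gpihbp1 (0.66, adjusted p = 0.0223) were called by limma.

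**Figure D5:**
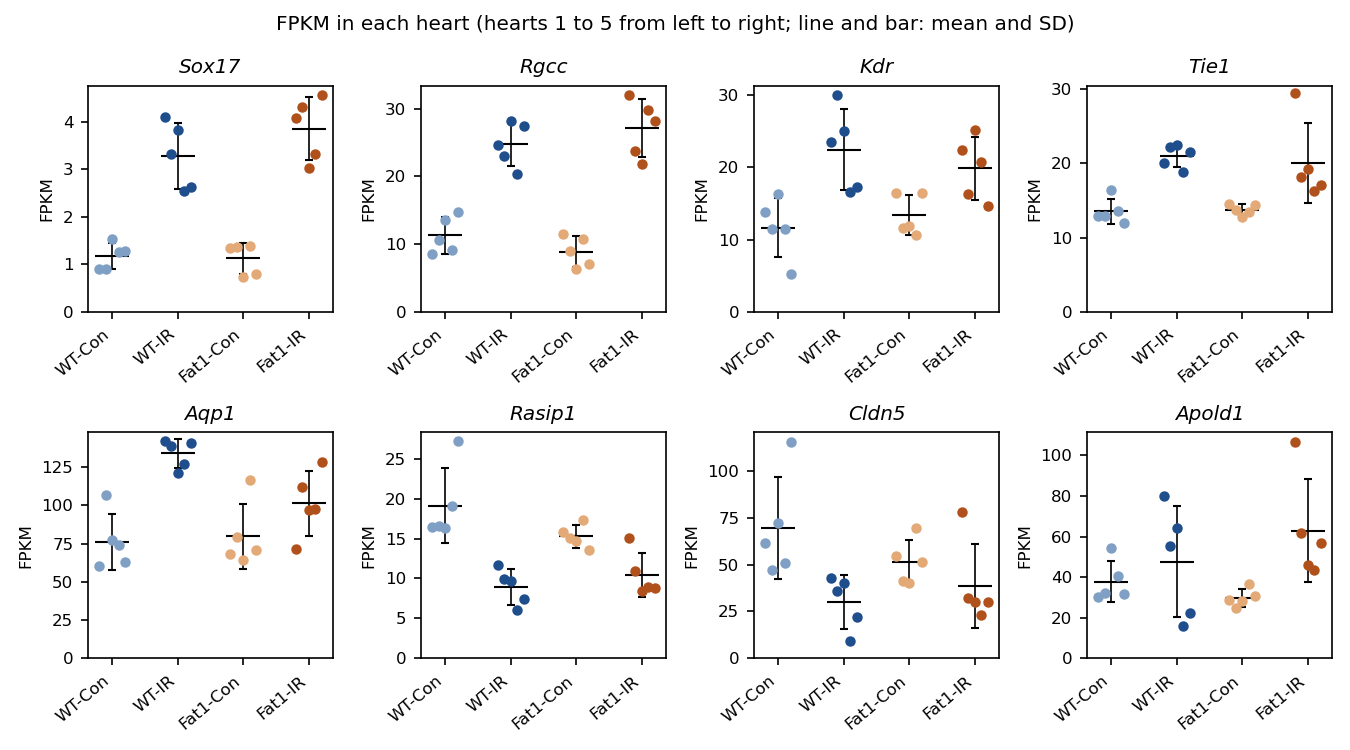
Points are FPKM in single hearts, with hearts 1 to 5 from left to right in each group, and the line and bar give the mean and SD (n = 5) on axes that start at 0. Sox17 and Rgcc separate all IR from all control hearts, Kdr and Aqp1 separate WT-IR from WT-Con, and Apold1 is at 16.1 and 22.4 in WT-IR 4 and 5 and 55.4 to 79.8 in WT-IR 1 to 3.

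Between genotypes 0 of the 36 genes were called. In control hearts (Fat1-Con with WT-Con) limma called 0 genes of the set in either direction, against 0.022% of all genes up and 0.00549% down, and 0 had an unadjusted p under 0.05 (against 5.63%), nor did voom call any. The log2 differences lay between -0.39 for Cldn5 and 0.35 for Ptprb, which were -0.19 and 0.06 without WT-Con 5. After IR (Fat1-IR with WT-IR) limma and voom called 0 genes, against 0.0604% of all genes up and 0.0439% down, and 5 (13.9%, against 6.8%) had an unadjusted p under 0.05: Esam, Eng, Cd34, Vwf and Aqp1. In all 5 the mean of the Fat1-IR hearts was lower, with the largest difference in Eng (log2 difference -0.50, SE 0.12, adjusted p = 0.163). The difference was above 0 for 10 of the 36 genes (27.8%, against 55.1% of all genes), with a median of -0.11 against 0.03 over all genes. With TPM scaling these were 16 of 36 and a median of -0.02 against 0.11 over all genes. Eng was at 25.5, 33.8, 33.9, 30.3 and 35.2 FPKM in WT-IR 1 to 5 and at 17.3, 26.2, 24.2, 23.5 and 21.3 FPKM in Fat1-IR 1 to 5, so that WT-IR 1 lay within the Fat1-IR range. The median log2 difference in the same comparison was -0.28 over 10 fibroblast markers and -0.46 over 10 macrophage markers. Between control hearts (Fat1-Con with WT-Con) these medians were -0.08 and -0.43. Summed macrophage markers were 149.3 to 206.0 FPKM in Fat1-IR and 214.4 to 243.8 FPKM in WT-IR, and their relation to the endothelial values was not tested.

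The interaction asks whether IR changed a gene differently in the 2 genotypes. For 0 of the 36 genes did limma or voom call it (against 0.00549% of all genes up and 0.0% down), and 2 genes (5.56%, against 5.31%) had an unadjusted p under 0.05, Ptprb and Pecam1. Ptprb differed most on the negative side (log2 estimate -0.70, SE 0.31, adjusted p = 0.831), with -0.41 without WT-Con 5, and Apold1 on the positive side (log2 estimate 0.89, SE 0.49, adjusted p = 0.831). Kdr, Tie1, Aqp1 and Rasip1, which were called in WT hearts alone, had interaction estimates of -0.43 (SE 0.35), -0.13 (SE 0.18), -0.49 (SE 0.25) and 0.52 (SE 0.26), so their changes were not shown to differ between genotypes. The estimate for Kdr was -0.18 without WT-Con 5, and those for Aqp1 and Rasip1 were -0.26 and 0.26 when the 3 hearts that stood apart were left out.

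Other genes of vessel biology were taken from lists by role, which were also chosen with earlier results of these data known. The same rule of calls was applied. By it 2.01% of all tested genes rose and 1.19% fell in WT hearts, and 1.3% rose and 0.703% fell in fat-1 hearts. Of 22 further endothelial transcription factors, 10 rose and 1 fell in WT hearts, and 6 rose and 1 fell in fat-1 hearts. The shear-responsive factor gene Klf4 (log2 fold change 2.22 in WT and 1.82 in fat-1 hearts) and Gata2 (1.49 and 1.59) rose in both, and Meox1, a homeobox gene, fell in both (-0.97 and -1.33). Elk3, an ETS factor gene, rose in WT hearts (0.88). Of 13 genes of endothelial Notch signaling, 4 rose in WT and 3 in fat-1 hearts. Hey1, a target of Notch (1.14 and 1.09), and the netrin receptor gene Unc5b (0.94 and 0.61) were among them in both genotypes, and the ligand gene Jag2 (0.81) and Efnb2 (0.67), an arterial ephrin gene, in WT. Of 13 genes of endothelial ALK1-BMP signaling, 4 rose in WT and 3 in fat-1 hearts, among them Id1 (2.55 and 1.72) and Id3 (1.31 and 1.36), targets of BMP receptors. Of 19 VEGF family ligands and secreted angiogenic factors, Cxcl12 alone rose in WT hearts (0.87) and Fgf2 alone fell in fat-1 hearts (-0.72).

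Markers of endothelial subtypes were counted in the same way and read against the same shares of all genes, 2.01% up and 1.19% down in WT and 1.3% up and 0.703% down in fat-1 hearts. These lists share called genes with the lists above, so the counts are not separate. The shared genes are Hey1, Efnb2 and Cxcl12 among arterial markers, Meox2 among capillary and Nr2f2 among venous markers. Of 11 arterial markers 5 rose in WT and 1 in fat-1 hearts, and their summed FPKM was 28.6 to 39.0 in WT-Con and 46.7 to 60.5 in WT-IR, without overlap, and 32.01 to 36.2 in Fat1-Con and 41.8 to 50.8 in Fat1-IR, again without overlap. Of 11 capillary markers 5 rose in WT and 2 in fat-1 hearts, among them the protease inhibitor gene Timp4 (1.45 and 1.503) and the homeobox gene Meox2 (0.79 and 0.70). Their summed FPKM overlapped between groups, at 1097 to 1399 in WT-Con, 962.1 to 1143 in WT-IR, 1091 to 1188 in Fat1-Con and 959.7 to 1373 in Fat1-IR. In such a sum the highest genes weigh most. The mean log2 value over the same 11 markers weighs them equally and did not overlap within either genotype. It was 3.578 to 3.977 in WT-Con and 4.081 to 4.532 in WT-IR. In fat-1 hearts it was 3.61 to 3.821 in Fat1-Con and 3.946 to 4.636 in Fat1-IR. Of the 11 markers, 8 had a positive change in WT and 9 in fat-1 hearts, with medians of 0.62 and 0.47. Of 6 venous markers, Nr2f2, the transcription factor gene of venous identity, rose in WT hearts (0.80), and Vcam1, an adhesion molecule for leukocytes, fell in both (-1.48 and -1.19). The venous markers summed to 93.1 to 128.3 FPKM in WT-Con and 59.8 to 94.1 FPKM in WT-IR, which overlapped, and to 88.8 to 115.4 FPKM in Fat1-Con and 66.7 to 77.3 FPKM in Fat1-IR, which did not. Vcam1 weighed heavily in these sums, with means of 61.9 FPKM in WT-Con, 23.1 in WT-IR, 58.3 in Fat1-Con and 25.5 in Fat1-IR. Of the 6 venous markers, 3 had a positive change in each genotype, with medians of -0.006 in WT and -0.026 in fat-1 hearts. Of 5 endocardial markers tested, 0 were called in either genotype, with medians of 0.31 in WT and 0.15 in fat-1 hearts. Of 7 lymphatic markers, Lyve1 (0.93) and Mmrn1 (0.78) rose in WT hearts, and 0 were called in fat-1 hearts. In WT-IR against WT-Con 9 of 10 macrophage markers had a positive change, with a median of 0.28, and 1 was called, Mrc1 (0.62, limma adjusted p = 0.0207). The part of macrophages in the lymphatic markers was not tested.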

How the data were processed

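RNA of 20 ventricular samples was extracted with TRIzol, made into libraries with a kit that does not mark strand, and sequenced on a HiSeq instrument. The authors aligned reads with HISAT2 to mm10 and counted them with featureCounts, with versions and the annotation release not given in the sources used here, and deposited FPKM values per gene. Hearts were grouped by the labels, and each is a separate heart. The 18219 genes whose mean reached 0.1 FPKM were tested (13655 did not) with limma 3.58.1 in R 4.3.3 on log2(FPKM + 0.1), as group means with a trend in the variance, two-sided, with Benjamini-Hochberg adjustment over all genes tested. Fold changes are on that scale, which understates those of low genes. A gene was called at an adjusted p under 0.05 with a fold over 1.5. Fragments were read back from the FPKM with exon lengths of GENCODE M21: 30746 of 31217 genes came out whole (98.49%, within 0.02), which gave 15630000 to 25990000 per library. Ratios were tested by exact permutation. Other software was Python 3.11.15, numpy 2.4.6, pandas 2.3.3, scipy 1.17.1 and matplotlib 3.10.9. Each test across genes was tested on simulated data. Alternatives covered the pseudocount, filter, scaling, weights, voom, the replicate block, fold threshold, fits of only the groups compared and leaving out hearts. All 36 members got values, per heart for those called, the VEGF receptors and the angiopoietin-Tie genes, and at most 4 called genes of any other list were named. Members and lists were chosen with earlier results of these data known.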

Additional observations from a re-analysis of the deposited data

Results flagged for a closer look

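Of 144 groups of 5 hearts (36 genes in 4 groups), 19 held a heart whose distance to the nearest other heart exceeded 0.71 of the group's range, Dixon's limit, where chance gives about 1 in 20 groups. WT-Con 5 accounted for 8 of them. It was low for Flt4 (0.925 FPKM, others 2.29 to 2.52), Nrp1 (6.70, others 9.63 to 10.02), Nrp2 (3.29, others 5.42 to 6.29) and Erg (3.73, others 8.09 to 8.78). It was high for Icam2 (16.9, others 7.41 to 8.69), Rasip1 (27.2, others 16.3 to 19.0), Fabp4 (162.2, others 56.9 to 67.0) and Gpihbp1 (24.7, others 8.96 to 12.8).

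Fat1-IR 1 accounted for 6, all high: Tie1 (29.5 FPKM, others 16.2 to 19.1), Cldn5 (77.8, others 23.2 to 32.4), Cd34 (20.8, others 13.9 to 15.1), Plvap (5.75, others 2.60 to 3.16), Egfl7 (14.8, others 8.17 to 9.63) and Apold1 (106.7, others 43.7 to 61.6). The 5 others were spread over 5 hearts. Flt1 was high in Fat1-Con 4 (13.3, others 9.80 to 10.7), Nrp1 in WT-IR 2 (13.4, others 10.5 to 11.1) and Ets1 in Fat1-IR 4 (22.2, others 9.06 to 12.3). Robo4 was low in WT-Con 2 (8.02, others 8.61 to 8.81) and Fat1-Con 3 (7.59, others 9.11 to 9.49).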

How the results depend on the processing

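Sox17 and Rgcc in both genotypes and in their mean, and Rasip1 in WT hearts, kept their calls in all settings. Of 484 values of called genes under other settings, 34 were no longer called and 0 changed sign. Many of the 484 could not change sign. Settings of the filter, variance trend, replicate block or fold threshold leave the fold change as it was. Leaving out a heart of 1 genotype leaves the fold change within the other genotype as it was. Of the 36 genes, the number that rose in WT-IR against WT-Con was 3 with TPM scaling (Kdr and Tie1 lost), 8 with array weights, 2 with a fold over 2, 8 without the 3 hearts that stood apart (WT-Con 5, Fat1-IR 1, Fat1-IR 4; an alternative chosen after seeing the data), and 4 to 8 with each heart left out. The number that fell was 2 with a mean of at least 1 FPKM, median-of-ratios scaling, array weights, voom or without those 3 hearts, and 1 to 2 with each heart left out. In fat-1 hearts it was 1 after rescaling without mitochondrial transcripts, with array weights or without those 3 hearts, and 0 to 1 with each heart left out. Averaged over genotypes, 8 rose with no fold threshold, 2 with a fold over 2, and 3 to 6 with each heart left out. There, 1 fell with no filter, 0 with a fold over 2, and 1 to 2 with each heart left out. The log2 difference in Tie1 to Tek in WT hearts was 0.081 to 0.289 with each heart left out, that of Angpt2 to Angpt1 0.593 to 1.024 in WT and 0.463 to 0.752 in fat-1 hearts (exact permutation adjusted p = 0.03175 without Fat1-Con 1), and that of Kdr to Flt1 in fat-1 hearts 0.019 to 0.278. The cause was not tested.

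With the replicate number as a block, 5 genes rose and 1 fell in WT hearts, 2 and 0 in fat-1 hearts, and 5 and 2 in their mean, with Angpt2 added. Same-numbered hearts did not pair: their deviations correlated at -0.14 to 0.06, with 0 of 30 pairs over 0.1. Mitochondrial rescaling moved the all-gene median of WT-IR against WT-Con from 0.04 to 0.15. The FPKM table limits precision through depth only for the lowest genes, such as Angpt2.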
